A study of Saccharomyces cerevisiae with 6 samples.

Results

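The genes described here act after inosine monophosphate (IMP), the first complete purine nucleotide, where synthesis divides into an AMP and a GMP branch, and in the salvage of free bases. They are *IMD2*, *IMD3*, *IMD4*, *GUA1*, *ADE12*, *AMD1*, *AAH1*, *HPT1* and *APT1*, taken by name from the platform annotation of the array, after updating symbols by gene identifier. Of these 9 genes, 8 had a probe, 1 each, and all 8 were among the 5693 features with a value on every array. *IMD4* (YML056C, chromosome XIII) had no probe under its symbol or identifier and was not analysed here. The name *APT1* is also an older name of *TML25*, and the probe used carries the identifier of YML022W, the phosphoribosyltransferase gene.

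Cultures of the budding yeast *Saccharomyces cerevisiae* strain S288C, growing exponentially in YPD medium at 25 °C, were exposed to 35 ppm paraquat for 2 h. Control cultures of the same strain reached the same density and were then grown for 2 h with no addition. Paraquat (methyl viologen) takes electrons from cellular reductants and passes them to oxygen, which yields superoxide. Poly(A) RNA of treated cultures was labelled with Cy5 and that of untreated cultures with Cy3, and both were hybridised to the same array, on 3 arrays of independent biological samples, with a scan at high and a scan at low laser power for each.

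IMP dehydrogenase, encoded by the *IMD* genes, turns IMP into xanthosine monophosphate, and the GMP synthase Gua1 makes GMP from it. In the other branch Ade12 makes adenylosuccinate from IMP, which the lyase Ade13 then splits to give AMP. Amd1 returns AMP to IMP by deamination. Aah1 deaminates free adenine to hypoxanthine, which Hpt1 joins to phosphoribosyl pyrophosphate, while Apt1 does this for adenine itself, so that adenine can reach AMP directly or by way of IMP. The transcript of *IMD2* is known to rise when guanine nucleotides run short.

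Values are log2 ratios of paraquat over untreated, as the mean of both scans of an array. No source used here states which base the logarithm has or which channel is on top. Base 2 and treated over untreated were assumed from the repository's usage and the channel order, and with the opposite direction every sign would turn. Dye and treatment cannot be told apart, because treated cultures carried Cy5 on all arrays. In a bulk culture, a different share of cells in some state and a different amount of RNA per cell cannot be told apart either. High power scans gave values for 5730 to 6006 of 6912 probes and low power scans for 2496 to 4076. With 3 arrays the precision is limited, and the median standard error of a feature was 0.20. Arrays agreed weakly, with Pearson r across the 5693 features, which are not independent replicates, of 0.0254 to 0.217.

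None of the 8 measured genes passed the test, and they lay on both sides of 0. *AAH1*, at 0.48, was the highest and *IMD3*, at -0.63, the lowest, with 4 means above 0 and 4 below, where 49.2% of all features lay above 0 and 50.8% below. After removal of an additive trend over probe numbers, 6 of the 8 means were below 0, beside 2818 of all 5693 features. By limma (adjusted p under 0.05 over all features) 0 of 8 passed, against 0.0351% of all features, and the adjusted p values of the 8 ran from 0.302 to 0.890. At an unadjusted limma p under 0.05 there was 1 gene on each side, against 5.48% of all features higher and 5.29% lower. Without variance moderation, 0 of the 8 passed, but neither did any other feature, so that this outcome was fixed. The median of the 8 means was -0.0415, beside -0.00654 for all features. For 5 of the 8 genes the arrays did not differ in sign, where 32.0% of all features had this. *IMD3*, *ADE12* and *AMD1* were below 0 on all arrays (16.0% of features), and *AAH1* and *HPT1* were above 0 on all arrays (16.0%).

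**Figure D1:**
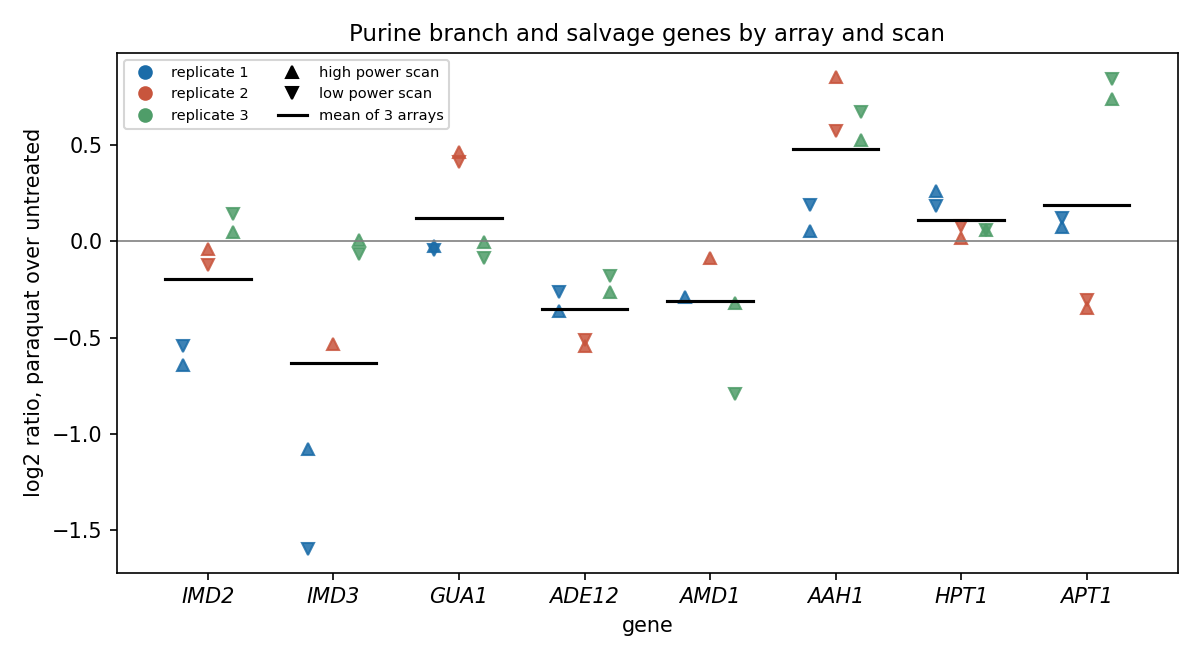
Log2 ratio of paraquat over untreated (vertical axis) for each of the 8 measured genes (horizontal axis), with upward triangles for high power scans, downward triangles for low power scans, colours for the 3 replicates and a bar for the mean of the arrays. AAH1 lies above 0 and ADE12 below 0 in all 6 scans, while IMD3 spreads between -1.60 and 0.00883.

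The first step of the GMP branch was represented by a pair of IMP dehydrogenase genes whose values differed widely between arrays. *IMD3* (YLR432W, chromosome XII) had log2 ratios of -1.34, -0.53 and -0.0282 on replicates 1, 2 and 3. Replicate 1 was thus far lower than the others and replicate 3 lay at about no difference. The mean was -0.63 ± 0.66 (SD, n = 3 arrays), 1.55-fold lower with paraquat, with a 95% interval of -1.11 to -0.16 and a limma adjusted p of 0.302. The SD of *IMD3* exceeded that of 94.7% of all features. Its mean was -0.28 without replicate 1. The low power scan of replicate 1 gave -1.60 and the high power scan -1.08, and on replicate 2 there was a high power value alone.

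Probes whose numbers differ from that of *IMD3* in the first digit alone had medians in the same order over the arrays as *IMD3*. Some of these probes did not follow that order. Probe numbers are built from 4 digit fields, which were used as a proxy for where a spot lies. The print layout was not known. Here, probes that differ in the first digit alone are called next to each other in the numbering, although their numbers are not consecutive. The 7 features whose numbers differ from that of *IMD3* in the first digit alone were at medians of -0.68, -0.45 and -0.0416 on replicates 1, 2 and 3, and all 7 had a mean below 0. On replicate 1, where *IMD3* was lowest, 5 of the 7 were below 0, with values from -1.28 to 0.17, and on replicates 2 and 3 it was 7 and 4 of the 7. Such neighbours in the numbering were looked up for each of the 8 genes after their values had been seen. Those of *IMD3* include *CNA1*, a catalytic subunit gene of calcineurin, which also is the next gene on the chromosome. Such an overlap was also found for *IMD2*, *ADE12* and *AAH1*. After removal of an additive trend over these fields, the mean of *IMD3* was -0.40 (95% interval -0.84 to 0.0399, limma adjusted p = 0.611). Over the alternative settings that gave a value for *IMD3*, the limma adjusted p was 0.120 or more. Over the 3 arrays, the values of 5217 other named features were compared with those of *IMD3*. The nearest were *CPR6*, a co-chaperone gene, *PGK1*, the phosphoglycerate kinase gene, and *CNA1*, at Euclidean distances of 0.101, 0.223 and 0.238. The median distance over all features was 1.52, but the smallest of so many distances lie below it by selection. The part of position on the array in the *IMD3* value was not tested.

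*IMD2* (YHR216W, chromosome VIII) had log2 ratios of -0.60, -0.0812 and 0.0968 on replicates 1, 2 and 3, which lie on both sides of 0. Its mean was -0.19 ± 0.36 (SD, n = 3 arrays), with a 95% interval of -0.62 to 0.23 and a limma adjusted p of 0.785. The mean was 0.00780 without replicate 1 and -0.34 without replicate 3, so that replicate 1 carried most of it. Both scans of each array lay within 0.0975 of each other. The 6 features next to *IMD2* in the probe numbering had medians of -0.34, 0.33 and -0.0574 on replicates 1, 2 and 3. On replicates 2 and 3 these lay on the other side of 0 from *IMD2*. Their part in the *IMD2* values was not tested.

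In the deposited values *IMD2* and *IMD3* stood in the same order on every array. *IMD2* exceeded *IMD3* by 0.74, 0.45 and 0.13 on the log2 scale on replicates 1, 2 and 3, a mean difference of 0.44 ± 0.31 (SD, n = 3 arrays; 95% interval -0.33 to 1.21). A two-sided exact sign-flip permutation test gave p = 0.25, the smallest that 3 arrays allow, and 0.25 after Benjamini-Hochberg adjustment over the 2 pairs of genes compared. After removal of the probe number trend, the order turned on replicate 3. *IMD2* was then at -0.54, -0.27 and 0.0111 on replicates 1, 2 and 3, and *IMD3* at -0.996, -0.30 and 0.0902. The *IMD* genes are close paralogs. Whether their probes share signal was not tested, and no probe sequence was used here.

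*GUA1* (YMR217W, chromosome XIII), the GMP synthase gene, had log2 ratios of -0.0360, 0.44 and -0.0430 on replicates 1, 2 and 3. Only replicate 2 was away from 0, in both of its scans, at 0.46 and 0.41. The mean was 0.12 ± 0.28 (SD, n = 3 arrays), with a 95% interval of -0.30 to 0.54 and a limma adjusted p of 0.888. Without replicate 2 it was -0.0395, without replicate 1 it was 0.20 and without replicate 3 also 0.20. The 7 features next to *GUA1* in the probe numbering had medians of 0.0664, 0.36 and 0.0389 on replicates 1, 2 and 3. After removal of the probe number trend the mean of *GUA1* was -0.0478. No difference of *GUA1* was thus detectable on these arrays, while the interval leaves room for changes up to 0.54 on the log2 scale.

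In the AMP branch, *ADE12* (YNL220W, chromosome XIV), the adenylosuccinate synthase gene, had log2 ratios of -0.31, -0.53 and -0.22 on replicates 1, 2 and 3. All 6 scans were below 0, and the arrays lay closer together than for most features, with an SD above that of only 18.0% of features. The mean was -0.35 ± 0.16 (SD, n = 3 arrays), 1.28-fold lower with paraquat, with a 95% interval of -0.76 to 0.0538 and a limma adjusted p of 0.544. The 7 features next to it in the probe numbering had medians of -0.0176, 0.18 and 0.0586, near or above 0 on each array. After removal of the probe number trend, *ADE12* had a mean of -0.47 (95% interval -0.85 to -0.0806, limma adjusted p = 0.491), and the lowest limma adjusted p of any alternative setting was 0.480.

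*ADE13*, whose lyase takes the next step to AMP and also acts earlier in the pathway to IMP, had log2 ratios of -0.99, -0.72 and -0.93 on the same arrays. It did not pass over all features (mean -0.88, limma adjusted p = 0.102), but did without replicate 2 (0.0319), among named probes alone (0.0392) and on low power scans alone (0.0446). After removal of the probe number trend it was at -0.63 (limma adjusted p = 0.348), without variance moderation its adjusted p was 0.741, and against 1.2-fold 1.00. Its values come from low power scans alone on every array. Both genes of the AMP branch therefore lay below 0 on all arrays, and neither passed.

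*ADE12* and *GUA1*, which draw on IMP and xanthosine monophosphate at the start of the AMP and the end of the GMP branch, differed by -0.28, -0.97 and -0.18 on replicates 1, 2 and 3, *ADE12* being lower each time. The mean difference of *ADE12* minus *GUA1* was -0.47 ± 0.43 (SD, n = 3 arrays; 95% interval -1.54 to 0.59), and the two-sided exact sign-flip permutation test gave p = 0.25, with 0.25 after adjustment over both pairs.

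*AMD1* (YML035C, chromosome XIII), the AMP deaminase gene, had log2 ratios of -0.29, -0.0852 and -0.56 on replicates 1, 2 and 3. Replicate 3 was the lowest, where the scans were far apart, at -0.32 for high and -0.79 for low power, and on the other arrays there was a high power value alone. The mean was -0.31 ± 0.24 (SD, n = 3 arrays), 1.24-fold lower with paraquat, with a 95% interval of -0.72 to 0.10 and a limma adjusted p of 0.615. Without replicate 3 the mean was -0.19. The 7 features next to *AMD1* in the probe numbering had medians above 0 on each array, at 0.23, 0.21 and 0.0264.

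Among the salvage genes *AAH1* (YNL141W, chromosome XIV), the adenine deaminase gene, had log2 ratios of 0.12, 0.72 and 0.60 on replicates 1, 2 and 3. Replicate 1 was low and the others close together, with replicate 2 above 97.3% of the features of its array. The mean was 0.48 ± 0.31 (SD, n = 3 arrays), 1.39-fold higher with paraquat, with a 95% interval of 0.0596 to 0.90 and a limma adjusted p of 0.399. The high and the low power scans gave the same mean of 0.48. The 6 features next to it in the probe numbering had medians below 0, at -0.18, -0.0206 and -0.19, and after removal of the probe number trend *AAH1* was at 0.49.

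*APT1* (YML022W, chromosome XIII), the adenine phosphoribosyltransferase gene, had log2 ratios of 0.0979, -0.32 and 0.79 on replicates 1, 2 and 3. Both scans agreed within each array to 0.104 or less, while the arrays lay on both sides of 0, so that its SD exceeded that of 89.7% of features. The mean was 0.19 ± 0.56 (SD, n = 3 arrays), with a 95% interval of -0.27 to 0.64 and a limma adjusted p of 0.809. It was 0.45 without replicate 2, -0.11 without replicate 3 and 0.11 after removal of the probe number trend. The 7 features next to *APT1* in the probe numbering had medians of 0.17, -0.14 and 0.15 on replicates 1, 2 and 3. These have the same signs as *APT1* on each array, and their part in its values was not tested.

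*HPT1* (YDR399W, chromosome IV), the hypoxanthine-guanine phosphoribosyltransferase gene, had log2 ratios of 0.22, 0.0504 and 0.0584 on replicates 1, 2 and 3. These were the closest of the 8 genes, with an SD above that of only 6.78% of features. The mean was 0.11 ± 0.10 (SD, n = 3 arrays), with a 95% interval of -0.29 to 0.52 and a limma adjusted p of 0.890. It was 0.0544 without replicate 1. The 7 features next to it in the probe numbering had medians of 0.0962, 0.18 and 0.0866. After removal of the probe number trend the mean was -0.10. Every array was then below 0, at -0.12, -0.0903 and -0.0927 on replicates 1, 2 and 3.

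The order of the 8 means, from lowest to highest, was *IMD3*, *ADE12*, *AMD1*, *IMD2*, *HPT1*, *GUA1*, *APT1* and *AAH1*. The 95% intervals of all neighbours in that order overlapped, and those of *IMD3* and *AAH1* alone left out 0. Over the 15 alternative settings, *ADE12* and *AAH1* were the 2 genes whose mean stayed within 1.5 times of its value. Their means ran from -0.47 to -0.27 and from 0.36 to 0.66. The filters and the changes of variance or null leave the mean of a gene as it is, so only the other settings could move it. A limit on a ratio is also harder to keep for genes with a mean near 0. After removal of the probe number trend, the genes whose 95% interval left out 0 were *ADE12* and *AAH1*, in place of *IMD3* and *AAH1*.

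**Figure D2:**
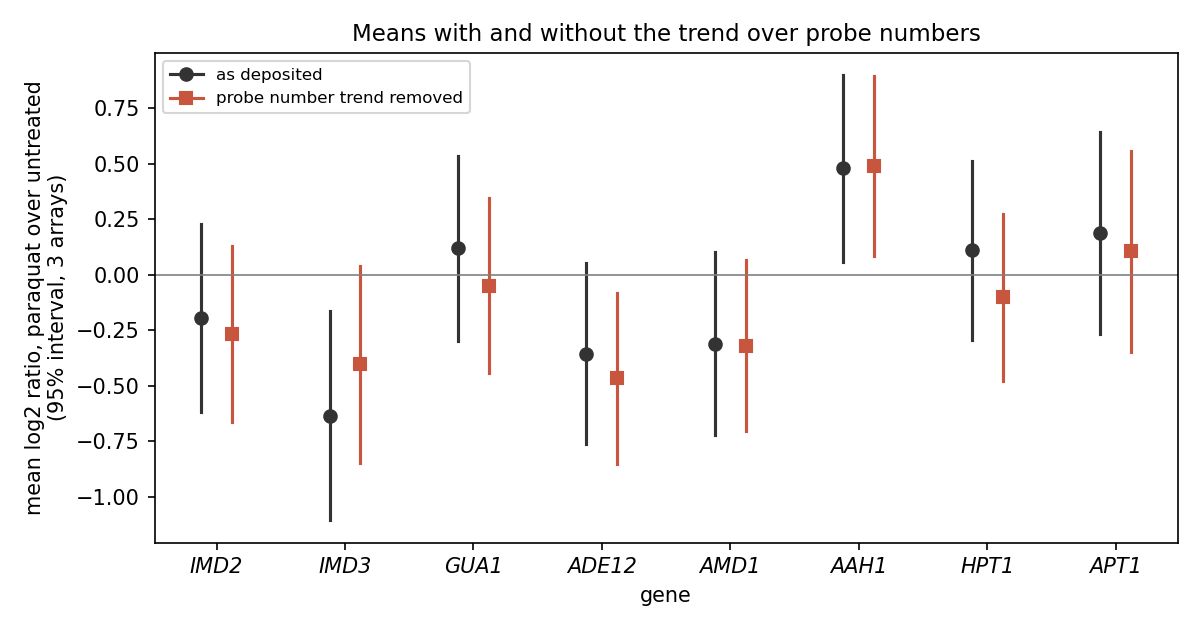
Mean log2 ratio of paraquat over untreated (vertical axis) with its 95% interval over 3 arrays for each of the 8 genes (horizontal axis), as deposited (circles) and after removal of the probe number trend (squares). AAH1 stays at 0.48 and 0.49, IMD3 is at -0.63 as deposited and -0.40 after the removal, and GUA1 and HPT1 cross 0. Intervals use the limma moderated variance.

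The genes that supply IMP had means below 0 in most cases. Of 14 genes of de novo purine synthesis, phosphoribosyl pyrophosphate synthetases included, 13 were measured and 12 had a mean below 0, where 50.8% of all features had this. After removal of the probe number trend it was 10 of 13, beside 2818 of all 5693 features. The synthetase genes *PRS1*, *PRS2* and *PRS4* were then above 0. By limma 0 passed over all features, and 5 were lower at an unadjusted p under 0.05, against 5.29% of all features. Besides *ADE13* these were *ADE17*, of the last steps to IMP, at -0.87, *ADE2*, whose loss turns colonies red, at -0.59, *ADE1*, of the step after *ADE2*, at -0.50, and *ADE4*, of the first committed step, at -0.44. *ADE17* passed on low power scans alone (limma adjusted p = 0.04996, and 0.0502 to 1.00 under the other alternatives), and its mean was -0.57 without replicate 3. *ADE1* was at -0.27 without replicate 3. The list median was -0.20, beside -0.0415 for the branch and salvage genes.

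Genes of other salvage steps, base uptake and purine breakdown lay on both sides of 0. Of 15 such genes 14 were measured, 8 with a mean above 0 and 6 below, with a median of 0.0432, and by limma 0 passed over all features. At an unadjusted limma p under 0.05 there was 1 higher gene, against 5.48% of all features, and 2 lower, against 5.29%. *APT2*, a paralog of *APT1*, had log2 ratios of 0.87, 0.53 and 0.42 on replicates 1, 2 and 3 (mean 0.60, limma adjusted p = 0.292). *FCY2*, the permease gene for adenine, guanine, hypoxanthine and cytosine, had log2 ratios of -0.64, -0.65 and -0.46 (mean -0.58, limma adjusted p = 0.295). *ISN1*, the IMP 5′-nucleotidase gene, had a mean of -0.46, and of -0.28 after removal of the probe number trend. *APT1* and *APT2* thus differed in how the arrays lined up, *APT2* being above 0 on all arrays and *APT1* on replicates 1 and 3; probe sequences of this pair were not used here either.

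Nucleotide kinases, which carry AMP and GMP on to triphosphates, had 4 measured genes with means from -0.31 for the adenylate kinase gene *ADK1* to 0.17 for the guanylate kinase gene *GUK1*, and a median of -0.0918. Of 7 regulator genes 5 were measured, with means from -0.19 for *GCN4* to 0.22 for *NRD1*. *BAS1* and *PHO2*, which encode the activators of the purine pathway, had means of -0.0377 and 0.00654, from arrays on both sides of 0. *BAS1* had log2 ratios of 0.37, -0.67 and 0.19 on replicates 1, 2 and 3, and *PHO2* of 0.24, -0.16 and -0.0631. By limma 0 kinase and 0 regulator genes passed, also at an unadjusted p under 0.05. Of 11 pyrimidine genes 9 were measured, with a median of 0.0603, 5 with a mean above 0 and 4 below. By limma 0 of them passed, and at an unadjusted p under 0.05 there were 2 lower genes, against 5.29% of all features. These were *FUR1*, of uracil salvage, at -0.50, or -0.28 without replicate 2, and *URA6*, the uridylate kinase gene, at -0.48.

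**Figure D3:**
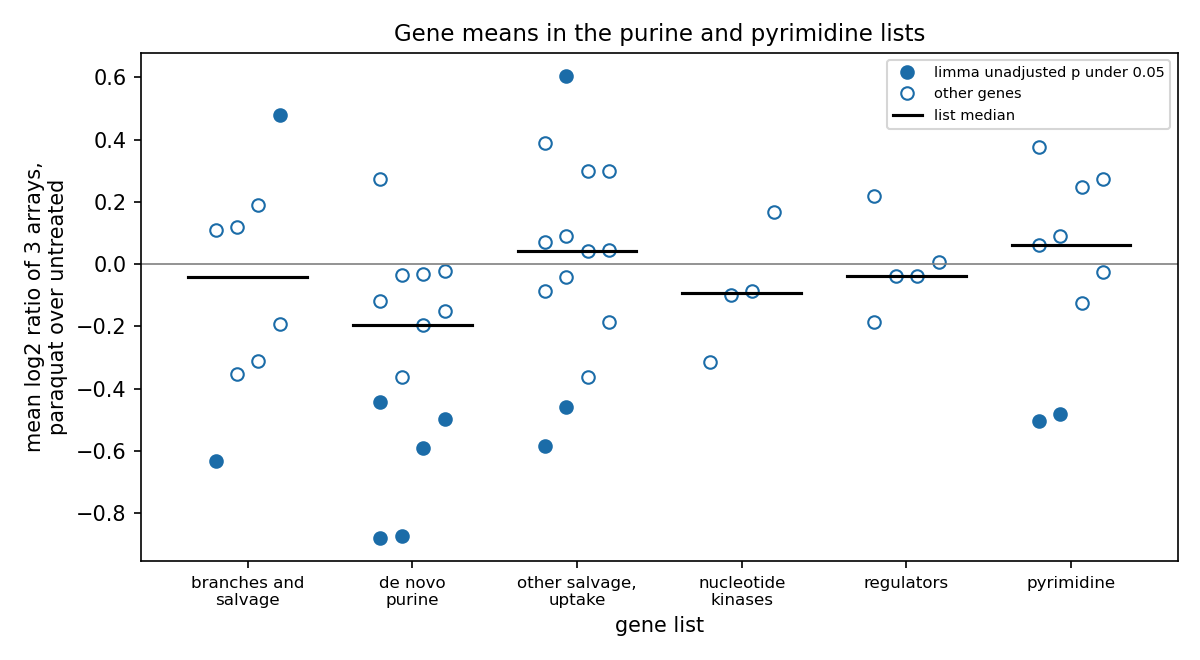
Mean log2 ratio of paraquat over untreated over 3 arrays (vertical axis) for each measured gene (points) of 6 gene lists (horizontal axis), with bars for list medians and filled points for an unadjusted limma p under 0.05. De novo genes reach -0.88 with a median of -0.20, while the branch and salvage genes lie between -0.63 and 0.48 around -0.0415.

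Neighbouring genes on the chromosomes were compared with the branch and salvage genes, using their order in the annotation. Some of them are also next to these genes in the probe numbering, so that both comparisons overlap. These are *PHO12* and *YHR218W* for *IMD2*, *CNA1* for *IMD3*, *ALG9* for *ADE12* and *MEP2* for *AAH1*. *SRC1*, next to *AMD1* on the chromosome, is next to *APT1* in the probe numbering. Of the genes next to *AAH1*, *MEP2*, an ammonium permease gene, had a mean of 0.00497 and the other had no value. *POP1*, next to *ADE12*, had log2 ratios of 0.0577, -0.71 and -0.39, and *ALG9*, on its other side, had a mean of 0.0360. *SRC1*, next to *AMD1*, had log2 ratios of -0.38, -0.14 and -1.16 on replicates 1, 2 and 3, which like those of *AMD1* are lowest on replicate 3. *CGI121*, on the other side of *AMD1*, had log2 ratios of 0.42, -0.25 and -0.14, which are lowest on replicate 2. None of the measured neighbours of the 8 genes passed by limma over all features. Both genes next to *APT1* had means below 0, at -0.0105 for *NSE5* and -0.13 for *UNG1*, and those next to *HPT1* were at -0.11 for *UTP5* and -0.0157 for *URH1*.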

How the data were processed

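The deposited values are log2 ratios (base and direction inferred, not stated) of 2-colour arrays. Spots with flag 0 entered the authors' LOWESS normalization and GeneSpring served to merge both scans, per the labels; the merged column was not used here. Background correction is not given in the sources used here. No intensities were used, so no levels or background limits are given. Names came from the platform annotation (5513 of 6912 probes with 1 symbol, 0 with several, 1399 with none), updated through the RefSeq table of assembly R64. Probes with identical values in every scan were joined (78 sets, equal to 9 decimals), and 761 probes without a value left out. Scans were averaged per array, since both scans of an array are 1 replicate, and limma 3.58.1 in R 4.3.3 (lmFit, eBayes, two-sided) tested the mean against 0 over 5693 features, with Benjamini-Hochberg adjustment at 0.05. The fitting code was checked on simulated data.

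The genes and lists were chosen with earlier results of these data known. Named are all 9 genes, *ADE13*, list genes with an unadjusted p under 0.05, and the 3 features nearest to the gene with the smallest p. Kinase, regulator and chromosome neighbour genes with values beyond this rule were named after their values were seen. Alternatives were each scan alone, gap filling, centring, scaling, the trend over probe numbers, 3 filters, a robust and an unmoderated variance, a null of 1.2-fold, and fits without each replicate in turn. Sequences of genes and probes were not used here.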

Additional observations from a re-analysis of the deposited data

How the results depend on the processing

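Under each of the 15 alternatives 0 of the 8 branch and salvage genes passed by limma. No feature at all passed on high power scans alone, with gaps filled or with arrays centred (scaled or not). The same held without variance moderation, against 1.2-fold and without replicate 1, so that 0 of 8 was fixed under these settings. At an unadjusted limma p under 0.05 there were 2 of 8 in the fit of all arrays, against 10.8% of all features in either direction. No mean changed sign other than those named here. After removal of the probe number trend *GUA1* was at -0.0478 and *HPT1* at -0.10. Leaving out 1 replicate gave means of -0.34 to 0.00780 for *IMD2* (the highest without replicate 1), of -0.0395 to 0.20 for *GUA1* (the lowest without replicate 2) and of -0.11 to 0.45 for *APT1* (the lowest without replicate 3). *IMD3* and *AMD1* had no value on low power scans alone or with all 6 scans required.

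The median of the measured branch and salvage genes was 0.10 on low power scans alone, 0.12 with all 6 scans required (6 genes in both), -0.18 after removal of the trend, and between -0.15 and 0.0311 when 1 replicate was left out. The median of the kinase genes was -0.22 with the trend removed, 0.0343 with all 6 scans required (2 genes) and between -0.20 and 0.0313 when 1 replicate was left out. The medians of 3 other lists turned sign. That of other salvage genes was -0.0130 on high power scans alone, -0.0678 on low power scans alone, -0.0164 with gaps filled, -0.0217 with all 6 scans required and -0.00978 without replicate 3. That of pyrimidine genes was -0.00188 on high power scans alone and with gaps filled, -0.0513 on low power scans alone and -0.0266 with all 6 scans required. That of regulators was 0.0461 without replicate 2 and 0.0413 without replicate 3. The de novo median stayed between -0.27 and -0.17.

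Over all features, limma called 2 higher and 0 lower. It called 0 higher on high power scans alone, with gaps filled, with arrays centred (scaled or not), without variance moderation and against 1.2-fold, and 1 with the trend removed. It called 8 higher and 10 lower on low power scans alone, 10 and 9 with all 6 scans required, 9 and 5 among named probes, and 6 higher both with values on at least 2 arrays and with a robust prior. Leaving out 1 replicate gave 0 to 43 higher and 0 to 26 lower. The cause was not tested. No further pairing was added, because each array holds both conditions and the test of the ratio within it against 0 is already paired.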
